A study of Mus musculus with 4 samples.

Results

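Expression was compared between macrophages of remodeling mouse mammary glands that lacked Ets2 and macrophages of remodeling glands that expressed it, on 1 Affymetrix array per side. Each gene was given as the Ets2-deficient minus the Ets2-expressing log2 level, so that 1 log2 is 2-fold and a negative value means a lower level without Ets2. A gene was kept where its brighter array lay at or above that array's median over all probe sets, which held for 7095 of the 12393 genes measured. The Ets2-expressing group was wild type at Ets2 and the Ets2-deficient group had both copies deleted, neither with a tumor. All mice of the series carried YFP expressed in macrophages, and the cells were YFP-positive cells taken by fluorescence-activated sorting. The labels name neither the Cre line nor the deleted exons nor the time of collection, and describe 1 RNA sample per group with no number of animals. The series' other 2 arrays, from early-stage tumors, served as a second setting: the control there is called wild type in its title but carries 1 copy of Ets2 by its source label, and the deficient sample has 2 copies deleted. Because each group had a single array, no difference has a replicate check or a p-value, and "higher" and "lower" describe these arrays.

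Ets2 is a transcription factor of the ETS family, whose members bind a GGAA core and are common targets of growth factor signaling through MAP kinases. In macrophages ETS proteins act beside Spi1 (PU.1), the lineage factor, and Ets2 lies downstream of the colony-stimulating factor receptor. A remodeling mammary gland rebuilds its ducts, fat and connective tissue, and its macrophages sit among fibroblasts that make collagen, among adipocytes and among other leukocytes. The question of the comparison is which transcripts of such macrophages, outside any tumor, differ with Ets2.

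The label was checked first. The Ets2 probe set read 13.24 on the Ets2-expressing array against 12.97 on the Ets2-deficient array, a difference of -0.28, at the 99.7th and 99.4th percentile of the arrays. A probe set outside the deleted part checks nothing, and since the deleted exons are not given, the array labelled Ets2-deficient is called so by its label. The cells carried macrophage transcripts at like levels on both arrays. Csf1r, the receptor that keeps macrophages alive, read 13.09 and 13.25, and the lysosomal protein gene Cd68 read 11.93 and 11.95. Adgre1, which encodes F4/80, read 11.60 and 11.45, whereas Itgam, which encodes CD11b, was dim on both at 5.04 and 4.99. Of 24 macrophage identity genes, 22 were kept, 1 was past 2-fold higher and 0 lower, with a median difference of 0.08 over all 24. Array medians were 6.17 (Ets2-expressing) and 5.98 (Ets2-deficient), 18 hybridization control probe sets averaged 9.73 and 9.53, and the Actb controls were brighter at the 3' than at the 5' end by 2.72 and 2.96. The error at hand was the spread among bright probe sets of the same gene: over 2482 genes the median standard deviation was 0.157, the pooled one 0.278, and 5% of genes were at 0.566 or more. It does not cover animals, sorting or amplification.

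The comparison was lopsided in size more than in sign. Of the 7095 genes, 93 were at least 2-fold higher on the Ets2-deficient array (1.31%) and 367 were at least 2-fold lower (5.17%), 6.48% in all. Counts in the lists below are to be read beside these shares. More genes lay above 0 than below it, 3921 against 3042 with 132 at exactly 0, and the median was 0.05 over kept genes and 0.04 over all genes measured. The tail was on the lower side: past 4-fold 146 genes were lower and 5 higher, and past 8-fold 35 were lower and 1 higher. Centring each array on its own median raised the all-gene median of 0.04 to 0.23 and gave 39.5% of called genes as higher in place of 20.2%. Centring on the hybridization controls gave 39.8% and quantile normalization 24.9%, so the split depends on the scale while lower calls stay in the majority in each. Both arrays were at or above their medians for 50 of the 93 higher and 194 of the 367 lower genes. Levels below the 25th percentile of an array (4.27 and 4.29) were taken as background, and 3 higher and 20 lower genes had their dimmer value there, so that their sizes are not exact. Where a called gene had several bright probe sets, all of them lay on the same side of 0 in 92 of 95 genes. Among 237 called genes (those named here and the others in the lists), averaging all probe sets of a gene ended the call for 34 and centring the arrays on their medians for 22. The sign was unchanged in each case, which for the centring follows from a shift smaller than the 2-fold limit. In the tumor comparison 161 of 7225 kept genes were higher (2.23%) and 55 lower (0.761%), 2.99% in all.

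**Figure D1:**
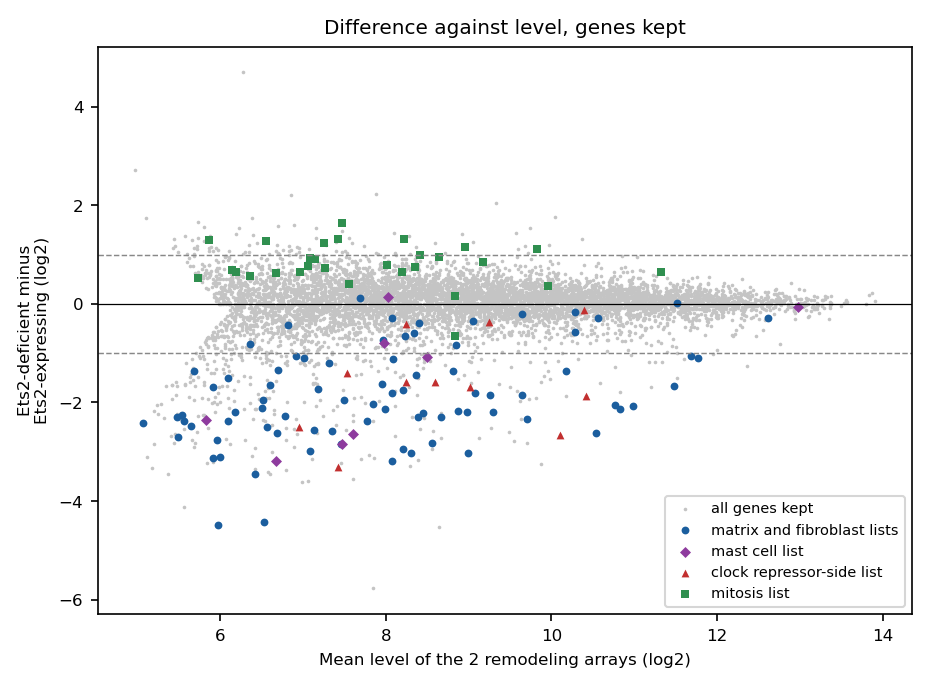
Difference (Ets2-deficient minus Ets2-expressing, log2) of each of the 7095 kept genes against its mean level on the 2 remodeling arrays (log2); coloured points are members of 4 groups of gene lists and dashed lines mark 2-fold. Points of the matrix and fibroblast lists spread below the lower line at all levels, 65 of 81 of them. Of 29 mitosis genes 8 lie above the upper line, and 28 lie above 0, against 55.3% of all kept genes above 0.

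The lowest gene of all was Ptx3, which encodes a long pentraxin, a secreted recognition protein that also crosslinks hyaluronan. It read 10.73 on the Ets2-expressing array against 4.96 on the Ets2-deficient array, a difference of -5.77 or 54.6-fold. Ackr3, an atypical receptor that takes up the chemokine CXCL12, followed at 10.92 and 6.38 (-4.54). Pcolce2, an enhancer of procollagen processing, read 8.22 and 3.73 (-4.49), the latter at background. Islr, a surface protein of mesenchymal stroma, read 8.74 and 4.31 (-4.43). The class A scavenger receptor gene Scara3 read 7.62 and 3.51 (-4.11), again at background, and its relative Scara5, a ferritin receptor, read 8.28 and 4.87 (-3.41). On the tumor arrays Ptx3 (7.55 and 7.19) and Ackr3 (8.33 and 8.31) lay between the remodeling values, with little difference between the Ets2 labels. Prss23, a secreted serine protease, differed by -3.60 (8.79 and 5.19), and Pla1a, a phospholipase that acts on phosphatidylserine, by -3.59 (8.85 and 5.26). Gfpt2, which starts the hexosamine pathway, differed by -3.55 (9.39 and 5.83), the elastin crosslinking enzyme gene Loxl1 by -3.46 (8.16 and 4.70) and Igdcc4, an immunoglobulin superfamily gene, by -3.46 (8.34 and 4.88). The alarmin gene Il33 went from 7.09 to 3.64 (-3.45, to background), the fibronectin-domain gene Fndc1 from 8.48 to 5.11 (-3.37), the Slit receptor gene Robo1 from 8.10 to 4.75 (-3.35) and the matrix protein gene Abi3bp from 6.84 to 3.52 (-3.32, to background). The filter sets all 15 at or above the median of the Ets2-expressing array. Except for Ackr3, they lay below the median of the Ets2-deficient array.

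The highest gene was Ms4a4b, an MS4A family gene known from T cells, which went from 3.93, at background, to 8.62 with a difference of 4.70. It was at background on the tumor arrays too, at 4.04 and 4.08, so 1 array of 4 carried the signal. Its second probe set was dim on all 4, at 4.47 and 4.47 on the remodeling arrays. Glycam1, a mucin-like protein of milk and of lymph node venules, read 3.62 (background) and 6.32 (2.71). Cx3cr1, the fractalkine receptor of monocytes and resident macrophages, read 6.77 and 8.99 (2.22), and the tumor arrays at 9.53 and 10.19 lay above both, whereas its second, dim probe set read 4.45 and 4.32. Arntl, the core clock activator also called Bmal1, read 5.76 and 7.96 (2.20). Gpr155, a lysosomal cholesterol sensor, read 8.31 and 10.36 (2.05). Sesn1, a p53 target that restrains mTORC1 signaling, read 9.17 and 10.93 (1.76), and its 3 bright probe sets gave 1.51 to 2.13. Qprt, an enzyme of NAD synthesis, read 5.52 and 7.25 (1.73, or 0.91 as the mean of its probe sets). The mitotic kinase gene Pbk read 6.65 and 8.30 (1.65), and Sgo1, which guards centromere cohesion, 5.46 and 7.01 (1.55). Abcd2, a peroxisomal fatty acid transporter, read 6.39 and 7.92 (1.53). The remaining places went to the zinc finger gene Zik1 (1.75, from background), the interferon zeta gene Ifnz (1.66), Sec16b of the endoplasmic reticulum exit sites (1.60), the lectin gene Clec2g (1.58) and BC147527 (1.56). For Gpr155, Sesn1 and Clec2g both tumor arrays lay nearer the Ets2-deficient remodeling array: they read 10.21 and 10.16 for Gpr155, 10.22 and 10.10 for Sesn1, and 7.40 and 7.26 for Clec2g.

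**Figure D2:**
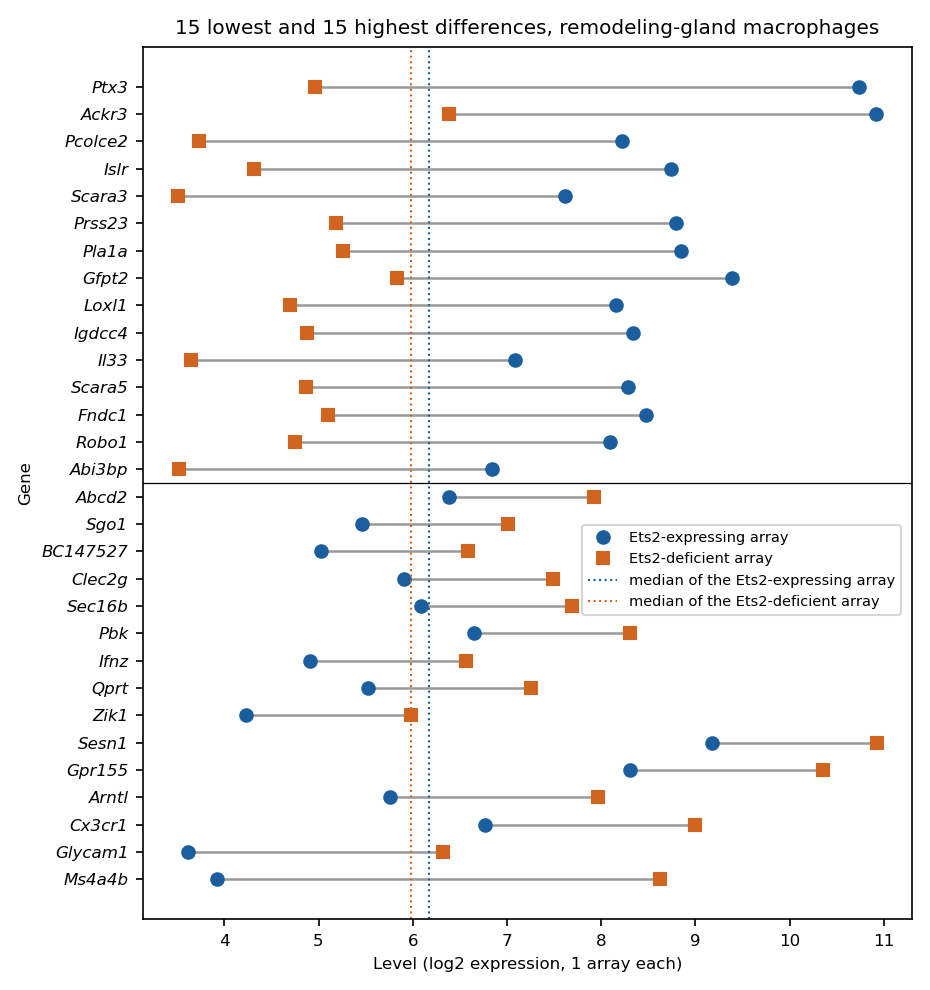
Log2 level on the Ets2-expressing array (blue circles) and the Ets2-deficient array (orange squares) of the 15 genes with the lowest and the 15 with the highest difference, 1 array each; dotted lines are the array medians, 6.17 and 5.98. Lines run further for the lower genes, from -5.77 (Ptx3) to -3.32 (Abi3bp), than for the higher ones, which span 1.53 (Abcd2) to 4.70 (Ms4a4b).

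Markers of some other cells that a sorted macrophage sample could hold differed between the arrays, and those of others differed little. The summed linear signal of 10 fibroblast markers was 23958 on the Ets2-expressing array against 6926 on the Ets2-deficient remodeling array, 3.46-fold lower, and 11432 and 11291 on the tumor arrays. All 10 were past 2-fold lower and 0 lay at background on any array, while 10 macrophage markers summed to 51356 and 49344. The sum of 8 mast cell markers was 2006 and 520, 3.86-fold lower, with 5 past 2-fold lower. Of the receptors that define mast cells, Fcer1a lay at background on all 4 arrays. Ms4a2 lay there on the Ets2-deficient remodeling array and both tumor arrays, and Kit read 5.22 and 5.17, below both medians. B cell markers went the other way: 6 of them summed to 1122 and 2223, with 2 past 2-fold higher. The defining factor Pax5 was dim on both, at 4.26 (background) and 4.39, and at background on the Ets2-deficient tumor array. Endothelial markers summed to 853 and 481. Tek (8.17 and 5.41), also known from a macrophage subset, was past 2-fold lower. Within 2-fold, Flt1 (-0.80) and Emcn (-0.95) were lower, whereas Vwf (0.96) and Tie1 (0.24) were higher. Pecam1 (4.48 and 4.60), Cdh5 (5.00 and 4.96) and Kdr (5.26 and 5.20) were dim on both. Mammary epithelial markers summed to 593 and 307, neutrophil markers to 13476 and 8980, adipocyte markers to 6570 and 8274, and T and NK cell markers to 2929 and 2506. Not all members of a list went the same way. Of the adipocyte genes Fabp4 (0.29), Lpl (0.275) and Car3 (0.74) were higher, Adipoq (-0.37) and Retn (-0.31) lower, and Cidec lay at background. Krt5, Krt14 and Elf5 were higher and the other epithelial markers lower. Cd4 and Cd8a were higher and the other T and NK cell markers lower. S100a8 (-0.63) and S100a9 (-0.535) carried most of the neutrophil sum, and Mpo and Elane lay at background on both remodeling arrays. Pericyte and smooth muscle markers, at 760 and 717, and eosinophil markers, at 1514 and 1401, differed little. In bulk RNA fewer cells of a type and less RNA per cell cannot be told apart. The part of these cells in the differences described here was not tested.

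**Figure D3:**
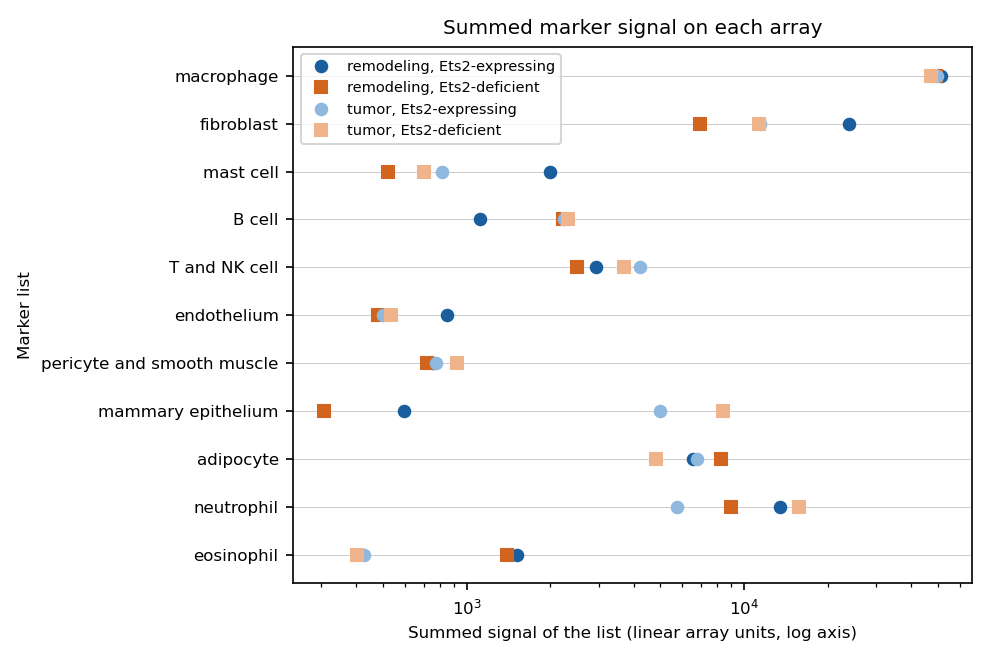
Summed linear signal (log axis) of 11 marker lists on each of the 4 arrays, 1 array per group. The macrophage sums lie between 47089 and 51356 on all 4 arrays, whereas the fibroblast sum is highest on the Ets2-expressing remodeling array (23958) and lowest on the Ets2-deficient one (6926).

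Among the lists, extracellular matrix genes were the broadest lower group. The collagen, collagen-processing, proteoglycan, elastic fiber, matricellular and basement membrane lists together had 101 measured genes, with a median of -1.35. Of these 67 were kept, and 53 were past 2-fold lower and 0 higher, against 5.17% and 1.31% of all kept genes. Among fibrillar and sheet-forming collagens all 11 kept of 15 measured were lower. Col1a2, a chain of type I collagen, read 11.90 and 9.76 (-2.14) and Col3a1, the type III chain, 12.32 and 10.64 (-1.67). Col5a1, which sets fibril diameter, read 8.41 and 5.86 (-2.55), the largest collagen difference, and Col6a1 of beaded microfibrils read 9.55 and 7.24 (-2.31). Col1a1 differed least, 12.22 and 11.16 (-1.06), and -0.86 with median-centred arrays, but a second probe set of it read 10.76 and 8.14 (-2.62), so probe sets disagreed in size and not in direction. On the tumor arrays Col1a2 (10.60 and 11.13), Col6a1 (8.80 and 9.14) and Col3a1 (11.77 and 11.31) differed by less than 2-fold and lay between the remodeling values. The fibroblast marker sum given above includes Col1a1, Col1a2, Col3a1, Dcn and Lum, which are also matrix genes, so its fall is not a separate observation. The part of fibroblasts in this group was not tested.

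Enzymes that fold and crosslink collagen were lower in 7 of 12 kept genes, of 16 measured (median -0.997). Beside Pcolce2 and Loxl1 these included Serpinh1, the collagen chaperone HSP47, at 8.59 and 5.59 (-2.99), and Plod2, a lysyl hydroxylase, at 6.84 and 4.14 (-2.70, the latter at background). The proline hydroxylase family member P3h3 read 6.27 and 3.85 (-2.42, the latter at background) and lysyl oxidase, Lox, 7.56 and 5.46 (-2.11). Of the elastic fiber list 7 of 8 kept genes were lower, of 15 measured (median -0.78). Elastin itself, Eln, read 7.82 and 5.32 (-2.49), the microfibril gene Mfap5 10.52 and 7.48 (-3.03), the fibulin gene Efemp1 9.67 and 6.48 (-3.19), and Ltbp1, which stores latent TGF-beta on microfibrils, 10.09 and 7.88 (-2.20). Matrix proteoglycans had 10 of 13 kept genes lower, of 17 measured, and a median of -2.02 with 0 of the 17 above 0. The small leucine-rich proteoglycan decorin, Dcn, which binds collagen fibrils, read 11.85 and 9.24 (-2.61), and the related Ogn and Lum differed by -2.82 and -1.73. Sdc2, a cell-surface heparan sulfate proteoglycan, read 9.69 and 6.74 (-2.95).

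The basement membrane list had 8 lower genes of 12 kept and 18 measured (median -1.12). The laminin chain genes Lama4 (7.49 and 4.35, -3.13), Lamb1 (8.88 and 6.05, -2.83), Lama2 (8.96 and 6.58, -2.38) and Lamc1 (9.56 and 7.34, -2.22) were all among them. Nid1, which links laminin to type IV collagen, read 11.80 and 9.75 (-2.05), and Col4a1 itself 9.08 and 7.64 (-1.44). Matricellular proteins, which signal from the matrix without building it, had 11 of 12 kept genes lower, of 21 measured (median -1.06). Ccn2, a connective tissue growth factor, read 7.56 and 4.45 (-3.11) and its relative Ccn1 9.97 and 7.79 (-2.18). On the tumor arrays Ccn2 was as high as 9.40 and 9.38, above both remodeling values. Periostin, Postn, read 10.18 and 8.33 (-1.85) and Sparc, a collagen chaperone of the matrix, 12.32 and 11.22 (-1.10, or -0.91 with median-centred arrays).

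Hyaluronan genes held the largest single difference. Of 22 measured genes 14 were kept and 7 were lower, against 5.17% of all kept genes, with a median of -0.70 over all 22. The summed signal of the list was 21497 on the Ets2-expressing array against 11539 on the Ets2-deficient array, against 10312 and 10575 on the tumor arrays. The synthase gene Has2 read 7.11 and 4.59 (-2.52) and Has1 6.24 and 4.59 (-1.64). Tnfaip6 (TSG-6), which with Ptx3 and inter-alpha-inhibitor proteins builds crosslinked hyaluronan, read 11.50 and 8.25 (-3.25). Its tumor values, 9.72 and 8.78, also lay lower on the Ets2-deficient array, by less than 2-fold. Itih5, an inter-alpha-inhibitor heavy chain, read 10.53 and 8.01 (-2.52) and was past 2-fold lower in the tumor comparison as well (9.64 and 8.50, -1.14). Vcan, the hyaluronan-binding proteoglycan versican, read 8.64 and 6.06 (-2.59), with 3 bright probe sets between -2.59 and -1.62.

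Inhibitors of angiogenesis hold back the growth of new vessels. Of 18 measured (median -1.24), 10 of 14 kept were lower and 0 higher, against 5.17% and 1.31% of all kept genes. Timp3, a metalloproteinase inhibitor that also blocks VEGF receptor binding, read 9.98 and 6.81 (-3.18), and its 3 bright probe sets gave -3.18 to -2.85. Thbs2 (thrombospondin-2) read 9.81 and 6.79 (-3.02) and Thbs1 (thrombospondin-1) 9.09 and 7.34 (-1.75). The tumor arrays had Thbs1 at 5.25 and 6.32, below both remodeling arrays and in the opposite order. Timp1 read 6.53 and 4.86 (-1.68), Col18a1, the source of endostatin, 7.50 and 5.54 (-1.95), and Serpinf1 (PEDF) 10.86 and 9.49 (-1.37). Spry2, an inhibitor of receptor tyrosine kinase signaling, read 8.90 and 6.92 (-1.98, or -0.73 as the mean of its probe sets). Several of these genes are also matrix or fibroblast genes, and the part of fibroblasts in their values was not tested. Promoters of angiogenesis were lower too where they passed 2-fold, in 4 of 10 kept genes of 19 measured (median -0.25). These were adrenomedullin, Adm (6.63 and 3.78, the latter at background), Vegfd (8.47 and 5.86), Hbegf (10.47 and 8.70) and Angptl4 (9.002 and 7.76, or -0.96 as the mean of its probe sets). Vegfa, at 8.997 and 8.37 (-0.62), was not past 2-fold.

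About as many matrix-cutting proteases were lower as stayed within 2-fold. Of 13 metalloproteinases measured 8 were kept, 4 were lower and 1 higher (median -0.49), against 5.17% and 1.31% of all kept genes. Mmp2 (gelatinase A) read 10.03 and 7.32 (-2.71), Mmp3 (stromelysin-1) 6.92 and 4.67 (-2.25), Mmp23 8.19 and 6.12 (-2.07) and Mmp14, which activates Mmp2, 6.47 and 4.99 (-1.48, or -0.72 as the mean of its probe sets). The higher gene was Mmp12, the macrophage elastase, at 7.79 and 8.94 (1.16), and the tumor arrays were above both at 9.93 and 10.38. Of the ADAM and ADAMTS list 5 of 11 kept genes were lower, of 16 measured (median -0.07, or 0.12 with median-centred arrays). The aggrecanase and versicanase genes Adamts1 (7.44 and 4.70, -2.73), Adamts4 (9.78 and 7.56, -2.22), Adamts5 (7.37 and 5.36, -2.01) and Adamts15 (8.73 and 6.47, -2.25) made up most of these. Among plasminogen activation and related serine proteases 4 of 10 kept genes were lower, of 12 measured (median -0.60), among them tissue plasminogen activator, Plat (6.67 and 3.57, the latter at background). Inhibitors were lower in 6 of 16 kept genes, of 21 measured (median -0.54), including Reck (7.68 and 4.91), a membrane-anchored metalloproteinase inhibitor, and the complement C1 inhibitor Serping1 (10.49 and 7.76).

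In the growth factor lists every gene past 2-fold was lower, and these were ligands, carriers and receptors. In the TGF-beta and BMP list 7 of 20 kept genes were lower, of 35 measured (median -0.44), against 5.17% of all kept genes. The ligand gene Tgfb2 read 9.31 and 7.45 (-1.85), Gdf10 7.04 and 4.27 (-2.77, the latter at background) and the activin subunit gene Inhbb 6.38 and 4.89 (-1.48). Among receptors Bmpr1a read 7.95 and 6.35 (-1.60), with 4 bright probe sets between -1.97 and -1.06. The BMP target Id3 read 6.88 and 5.07 (-1.81), and the binding protein gene Fstl1 11.12 and 8.29 (-2.83). Secreted Wnt antagonists were lower: Sfrp2 (9.43 and 6.29), Sfrp1 (7.54 and 4.70) and Sfrp4 (6.26 and 4.22, the latter at background), with the receptors Fzd2 (7.57 and 5.22) and Ror2 (6.91 and 4.90). They were 5 of 10 kept Wnt genes of 32 measured (median 0.05). Binding proteins made up the 4 lower IGF genes of 7 kept and 14 measured (median -0.09): Igfbp6 (9.07 and 5.84, -3.23), Igfbp5 (10.79 and 8.19, -2.61), Igfbp3 (6.63 and 4.99, -1.64) and Igfbp7 (8.93 and 7.49, -1.44). The EGF receptor ligands Ereg (7.51 and 5.61) and Hbegf were lower, 2 of 5 kept of 12 measured (median -0.38). The mesenchymal receptors Pdgfra (10.39 and 8.19), Pdgfrb (6.63 and 4.34) and Fgfr2 (6.94 and 4.68) were lower, 3 of 7 kept of 18 measured (median -0.16). As the mean of all probe sets Tgfb2 gave -0.98, Inhbb -0.66, Fzd2 -0.72 and Igfbp7 -0.995, which ends those calls. With median-centred arrays the medians of the IGF and PDGF lists changed sign, to 0.10 and 0.03. Pdgfra and Pdgfrb are also fibroblast markers, and the part of such cells was not tested.

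**Figure D4:**
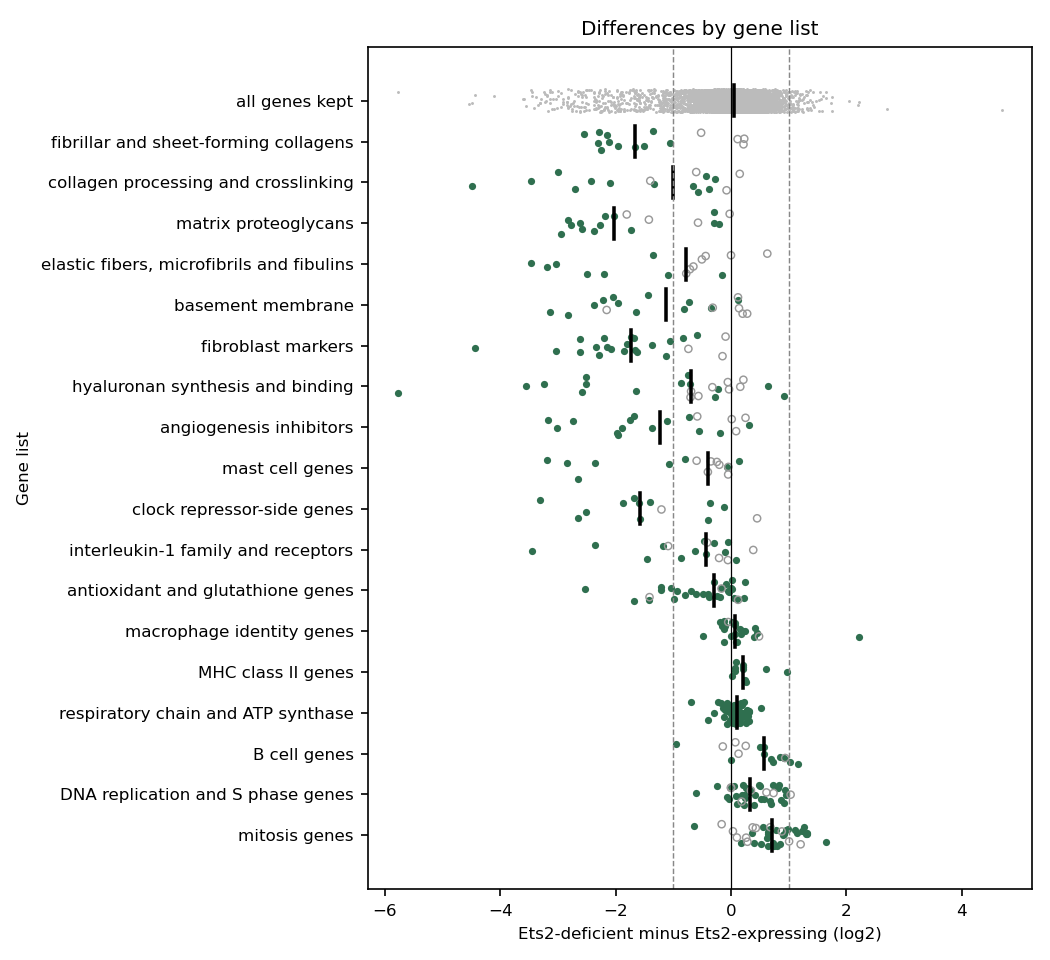
Difference (Ets2-deficient minus Ets2-expressing, log2) of each member of 18 gene lists and of all 7095 kept genes (grey); filled points are kept genes, open circles are members too dim to keep, bars are medians over all measured members (for the grey row, over kept genes) and dashed lines mark 2-fold. Medians run from -2.02 (matrix proteoglycans) to 0.71 (mitosis genes), and the lists of macrophage identity, MHC class II and respiratory chain genes sit near 0.

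Inflammatory cytokine genes were lower on the Ets2-deficient array in a part of the list. Of 27 measured genes 19 were kept, 5 were past 2-fold lower and 0 higher, against 5.17% and 1.31% of all kept genes. Below 0 lay 22 of 27, with a median of -0.53. Interleukin-6, Il6, read 10.18 and 8.56 (-1.62) and interleukin-1 alpha, Il1a, 9.67 and 8.22 (-1.45). The granulocyte growth factor gene Csf3 read 6.77 and 4.13 (-2.65), at background on the Ets2-deficient array and on both tumor arrays (4.07 and 4.10). Acod1, which makes the antimicrobial metabolite itaconate, read 9.03 and 6.66 (-2.37). Interleukin-1 beta, Il1b, at 11.93 and 11.46 (-0.47), and Tnf, at 8.74 and 8.56 (-0.18), were not past 2-fold. In the interleukin-1 family and receptor list 4 of 12 kept genes were lower, of 17 measured (median -0.43), with the receptor Il1r1 at 7.70 and 5.34 (-2.36) and the decoy receptor Il1r2 at 9.62 and 8.44 (-1.18) beside Il33 and Il1a. Of 17 NF-kappa-B subunit and feedback genes 14 lay below 0, with a median of -0.50. Among the 16 kept, only Bcl3, a co-regulator (10.15 and 8.87), was past 2-fold lower, near the share over all kept genes. Il4ra, the receptor chain for interleukins 4 and 13, read 9.83 and 8.23 (-1.60), and a second probe set gave -1.66.

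Chemokines were mostly level. For the counts here, the shares over all kept genes were 5.17% lower and 1.31% higher. Of 16 CC chemokines measured 14 were kept and 2 were lower (median -0.15): eotaxin, Ccl11 (8.05 and 5.53), and Ccl17, a ligand of CCR4 (9.62 and 7.31). Of 14 CXC and CX3C chemokines 10 were kept and Cxcl14 (6.88 and 5.00) was lower (median -0.18), while Cxcl2, at 12.12 and 12.05, was nearly equal. Among 17 chemokine receptors 12 were kept, 3 were lower and 1 higher (median 0.00). Beside Ackr3 the lower ones were the sink receptor Ackr1 (6.68 and 5.45) and the neutrophil receptor Cxcr2 (8.21 and 7.09), and the higher one was Cx3cr1. Of the eicosanoid genes the prostacyclin synthase gene Ptgis was lower (8.13 and 5.12, -3.01) and Hpgd, which inactivates prostaglandins, was higher (9.71 and 11.02, 1.31, other probe set 1.05), 1 of 15 kept in each direction (21 measured, median -0.10). Ptgs2, the inducible cyclooxygenase, read 11.84 and 11.49. With median-centred arrays the list medians were on the other side of 0, at 0.05 (CC), 0.01 (CXC and CX3C) and 0.09 (eicosanoid), and Cxcr2 and Il1r2, at -0.92 and -0.99, were within 2-fold. Neutrophil markers summed to less on the Ets2-deficient array, as given above, and their part in the Cxcr2 and Il1r2 values was not tested.

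Mast cell proteases gave some of the steepest differences outside the matrix. Mcpt4 (8.28 and 5.08, -3.20) and Cma1 (8.89 and 6.05, -2.85) encode chymases, Tpsb2 (7.01 and 4.64, -2.36) a tryptase and Cpa3 (8.93 and 6.29, -2.65) the carboxypeptidase stored with them. Hdc, which makes histamine, read 9.04 and 7.96 (-1.08, or -0.89 with median-centred arrays). They were 5 of 8 kept genes of 15 measured (median -0.40), with 0 higher, against 5.17% lower and 1.31% higher over all kept genes. The tumor arrays gave Cma1 at 7.67 and 7.18 and Cpa3 at 7.88 and 7.22, between the remodeling values and lower without Ets2 by less than 2-fold.

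Genes of the circadian clock were lower on the repressor and output side, while the activator side was mixed. In the clock, Arntl and Clock or Npas2 form an activator that binds E-boxes and turns on Per, Cry, Nr1d, Dbp and Tef genes. PER and CRY proteins then block the activator, the NR1D receptors repress Arntl and Npas2, and DBP and TEF act on D-boxes, so activator and output genes peak at different times of day. Of the 13 repressor-side and output genes measured, 12 lay below 0, with a median of -1.58. Among the 11 kept, 8 were past 2-fold lower and 0 higher, against 5.17% and 1.31% of all kept genes. Per2 read 9.09 and 5.77 (-3.32), Dbp 11.43 and 8.77 (-2.66), Nr1d1 (REV-ERB alpha) 8.20 and 5.70 (-2.51) and Nr1d2 11.35 and 9.49 (-1.86). Tef read 9.86 and 8.18 (-1.68), Cry2 9.03 and 7.45 (-1.58), Per3 8.23 and 6.83 (-1.40) and the cell-cycle kinase gene Wee1, a known clock output, 9.40 and 7.80 (-1.59). Per1 (8.45 and 8.05) and Cry1 (9.43 and 9.07) were lower by less than 2-fold. Of 7 activator-side genes 5 were kept, 2 higher and 1 lower, with 3 above and 3 below 0 and a median of 0.00. Among them Arntl was higher by 2.20 and Npas2 by 1.34 (5.07 and 6.41), although a second, dim probe set of Npas2 gave -0.12. Clock itself (9.32 and 9.21) and Nfil3 (9.74 and 9.51), which represses at D-boxes, were level, and the nuclear receptor Rora was lower (6.64 and 5.63). As the mean of all probe sets Per3 gave -0.33, Npas2 0.61 and Rora -0.49, which ends those 3 calls.

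The Ets2-expressing remodeling array was the highest of the 4 for each of the 8 lower genes. For Dbp the tumor arrays read 8.73 and 8.35, for Nr1d2 9.35 and 9.09 and for Cry2 7.37 and 7.10, at or below the Ets2-deficient remodeling array. Per2 read 6.37 and 5.23 there and was past 2-fold lower in the tumor comparison as well (-1.14). Wee1 carried the same value to 3 decimals, 7.80, on the other 3 arrays. Such identical values were seen at 711 probe sets (3.13%) between the remodeling arrays, against 41 that differed by the smallest step of the values, and a called gene had its other 3 values identical in 4 cases. Arntl read 7.21 on both tumor arrays and Npas2 7.07 and 6.47. Times of collection are not given in the sources used here, and the part of collection time was not tested. The deubiquitinase gene Usp2, a known clock output outside the list and picked after its value was seen, read 8.35 and 6.61 (-1.74).

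**Figure D5:**
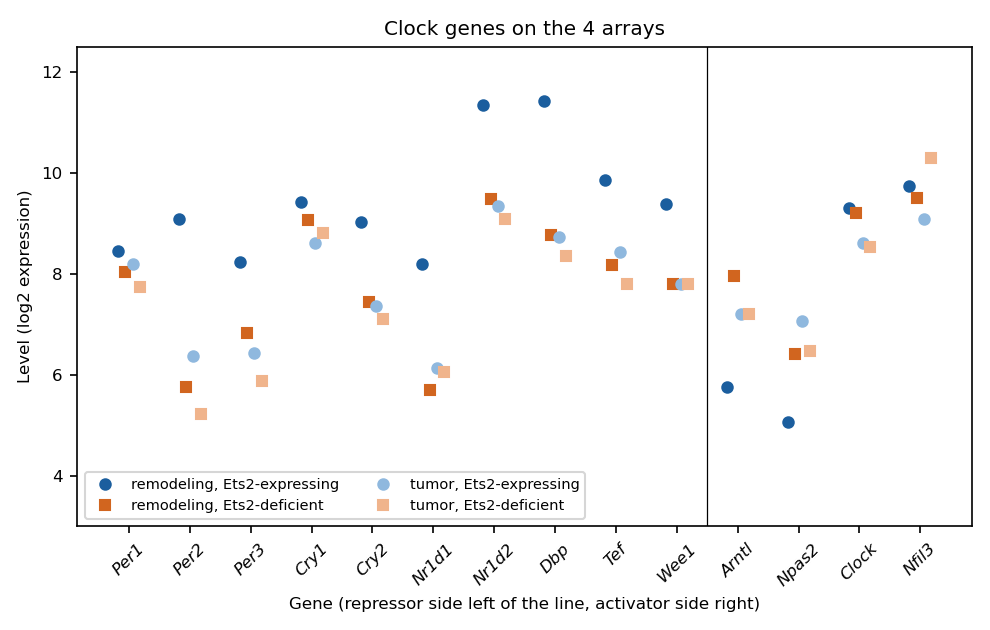
Log2 level of 14 clock genes on the 4 arrays (circles Ets2-expressing, squares Ets2-deficient; dark remodeling, light tumor), 1 array per group. Repressor-side genes such as Dbp (11.43 against 8.77) are highest on the Ets2-expressing remodeling array, and Arntl and Npas2 are lowest on it (5.76 and 5.07).

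Promoter sequence is shown for 3 lower clock genes because each holds a motif that clock factors are known to bind. The windows are the 250 bases before the annotated start, from RefSeq on build GRCm38.p6, read in the sense of the gene, with the motif in capitals. Tef (chr15:81802423-81802672, plus strand) has an E-box that begins 127 bases before its start. Nr1d1 (chr11:98775378-98775627, minus strand) has an E-prime box 28 bases before its start. Per3 (chr4:151044666-151044915, minus strand) has 2 D-boxes, 205 and 158 bases before its start.
Tef: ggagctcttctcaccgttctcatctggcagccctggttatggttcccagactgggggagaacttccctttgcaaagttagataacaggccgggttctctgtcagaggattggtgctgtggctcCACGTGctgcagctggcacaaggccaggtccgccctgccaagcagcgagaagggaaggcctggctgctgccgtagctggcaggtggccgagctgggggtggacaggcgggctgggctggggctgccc
Nr1d1: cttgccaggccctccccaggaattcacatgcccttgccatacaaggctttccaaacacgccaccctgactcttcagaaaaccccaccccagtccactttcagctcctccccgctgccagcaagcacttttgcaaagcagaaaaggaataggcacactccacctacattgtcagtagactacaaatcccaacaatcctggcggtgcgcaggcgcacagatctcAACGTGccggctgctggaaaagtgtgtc
Per3: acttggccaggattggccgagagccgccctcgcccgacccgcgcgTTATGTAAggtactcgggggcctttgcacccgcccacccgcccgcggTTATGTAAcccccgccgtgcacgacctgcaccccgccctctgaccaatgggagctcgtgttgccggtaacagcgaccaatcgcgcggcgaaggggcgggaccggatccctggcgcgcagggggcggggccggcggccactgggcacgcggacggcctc
The letters searched on both strands were CACGTG (E-box), CACGTT (E-prime box), TTATGTAA (D-box) and AGGTCA (the core bound by ROR and NR1D receptors). E-box and E-prime box share CACGT but no stretch counts as both. Of 20 clock genes measured 17 had a window, and 11 of these (64.7%) held at least 1 of the 4 motifs in any of their windows, against 26.5% of kept genes and 25.6% of all RefSeq genes. The 17 include genes not called lower, and of these Per1, Cry1, Clock, Nfil3, Bhlhe41 and Rorb held a motif. Per2 and Wee1 had no window, so the share does not describe the lower clock genes alone. In the first window of each gene the shares were 52.9%, 22.3% and 22.9%. Cry2 held an E-prime box 166 bases before its start and Nr1d2 an AGGTCA 77 bases before, while the windows of Dbp and Arntl held none of these letters. Short motifs are common: among all RefSeq genes 6.86% held CACGTG in a window, 4.5% CACGTT, 0.977% TTATGTAA and 15.8% AGGTCA. A match describes the letters only.

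Over the whole comparison the same windows were found for 5802 kept genes, 259 of them lower and 75 higher. CACGTG was in a window of 9.27% of lower, 6.67% of higher and 10.5% of kept genes, and TTATGTAA in 1.93%, 0% and 0.603%. CCGGAAGT, an ETS core with its flanks, was found for 1.54% of lower genes (4 of 259), 5.33% of higher and 7.17% of kept ones. TGANTCA, the AP-1 site, was in 12% of lower, 6.67% of higher and 6% of kept genes, and TATAAA, the TATA box, in 14.3%, 6.67% and 8.29%. Each was searched on both strands, and none was tested.

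Glucocorticoid and stress genes were lower in part. Of 20 glucocorticoid-responsive genes 19 were kept and 3 were past 2-fold lower, with 16 of 20 below 0 and a median of -0.38. Fkbp5, the feedback inhibitor of the receptor, read 10.77 and 8.87 (-1.90), and the metallothionein Mt2 12.05 and 10.36 (-1.68). Klf9, also tied to the clock, read 11.84 and 10.67 (-1.17), and Tsc22d3 (GILZ) 10.52 and 9.94 (-0.58). For Fkbp5 the tumor arrays were lower still, at 8.22 and 7.59. Among antioxidant and glutathione genes 6 of 28 kept were lower, of 31 measured (median -0.30), including sulfiredoxin, Srxn1 (11.48 and 10.44), the cystine transporter Slc7a11 (7.90 and 6.69) and the endoplasmic reticulum peroxidase Gpx8 (8.17 and 5.63). Hmox1, which degrades heme, read 12.53 and 11.90 (-0.62). Heat shock proteins and chaperones had 3 of 26 kept genes lower, of 27 measured, and 23 of 27 below 0 (median -0.32). The small heat shock genes Hspb8 (9.94 and 6.64), Cryab (7.93 and 6.31) and Hspb1 (7.66 and 6.48) passed 2-fold, and Hsph1, at 13.17 and 12.36 (-0.81), did not. Immediate early and AP-1 genes, which respond to tissue dissociation, had a median of 0.00 over 27 measured, with Fosl1 (6.82 and 4.88) and Batf (7.39 and 6.24) among 3 lower of 24 kept. As the mean of all probe sets Srxn1 gave -0.79, Cryab -0.80 and Fosl1 -0.93, and with median-centred arrays Klf9 gave -0.98, Hspb1 -0.99 and Batf -0.96, all within 2-fold. That centring also brought the list medians to -0.18 (glucocorticoid), -0.11 (antioxidant) and -0.12 (heat shock). Among all kept genes 5.17% were lower.

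Enzymes of retinoid, steroid and ester metabolism held 7 lower genes of 13 kept and 26 measured (median -0.50), against 5.17% of all kept genes. The retinaldehyde dehydrogenase gene Aldh1a3 read 7.46 and 4.23 (-3.23, or -0.84 as the mean of its probe sets), at background on the Ets2-deficient array, and the carboxylesterase gene Ces2g 8.68 and 5.54 (-3.14). Chemerin, Rarres2, a retinoid-responsive attractant, read 11.11 and 9.23 (-1.88). Ces2g and the dipeptidase gene Dpep1 (9.69 and 7.15, -2.54) were past 2-fold lower in the tumor comparison too, each by -1.16.

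Among the 75 lists, which took in 20 of the 93 higher genes, the mitosis list held the most genes past 2-fold higher. Of 40 mitosis genes measured, 29 were kept, and 8 were past 2-fold higher and 0 lower, against 1.31% and 5.17% of all kept genes. Above 0 lay 38 of the 40, with a median of 0.71. The summed signal of the list was 8387 and 13726 in remodeling and 9337 and 12821 in tumor macrophages. Mki67, the Ki-67 proliferation antigen, read 7.56 and 8.88 (1.32), the B-type cyclin gene Ccnb2 6.77 and 8.09 (1.31) and the spindle motor gene Kif11 5.21 and 6.52 (1.30). Cdca3 (5.92 and 7.19), the ubiquitin-conjugating enzyme Ube2c (6.64 and 7.87), the midzone organizer Prc1 (8.39 and 9.54) and survivin, Birc5 (9.27 and 10.38), completed the set with Pbk. Top2a, which untangles chromosomes, read 11.01 and 11.65 (0.65) and Cdk1 6.91 and 7.64 (0.73). Pbk was past 2-fold higher in the tumor comparison as well (7.52 and 8.71). As the mean of all probe sets Cdca3 gave 0.27 and Kif11 0.60, which ends those calls. Of 40 replication and S phase genes 33 were kept and 0 were past 2-fold in either direction, but 34 of 40 lay above 0 (median 0.33). Pcna, the polymerase clamp, read 12.03 and 12.29. Of 16 cyclin-dependent kinase inhibitors and G1 genes 13 were kept and 0 passed 2-fold (median 0.14).

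B cell genes also lay mostly above 0. Of 16 measured 11 were kept, and 2 were past 2-fold higher, against 1.31% of all kept genes. These were Ighm, the mu heavy chain (9.10 and 10.26, 1.16), and Ms4a1, which encodes CD20 (7.60 and 8.62, 1.02). As the mean of all probe sets Ighm gave 0.25 and Ms4a1 0.92, which ends both calls. The list had 14 of 16 above 0 and a median of 0.57, with the receptor chain genes Cd79b (8.18 and 8.91) and Cd79a (5.53 and 6.11) among those below 2-fold. Tumor values of Ms4a1, 8.58 and 8.18, were close to the Ets2-deficient remodeling array. Antibody secretion genes were not past 2-fold in any of 6 kept (9 measured, median -0.24). The Fc receptor-like gene Fcrla, also known from B cells, read 6.97 and 8.04 (1.07, or 0.93 as the mean of its probe sets). The part of B cells in these values was not tested.

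Much of the macrophage program was level on the 2 arrays. All 11 MHC class II pathway genes were kept and lay above 0, with a median of 0.21 and none past 2-fold, the largest being the chaperone gene H2-Oa at 7.88 and 8.85 (0.97). Of 32 interferon response genes 31 were kept and Oasl1 (10.64 and 9.28) was lower, with a median of 0.16 and Ifit3 (7.33 and 8.24) the highest at 0.91. Toll-like receptors and co-receptors had 15 kept of 18 and 0 past 2-fold (median 0.09). The ETS family itself had 17 kept of 23 and 0 past 2-fold (median 0.04). Tissue-resident and alternative activation genes had a median of 0.00 over 27 measured, and Il4ra was the 1 lower of 25 kept. Uptake and scavenger receptor genes had a median of 0.03 over 26 measured, with Scara3 and Scara5 the 2 lower of 22 kept. Lysosomal genes (38 measured, median 0.06) had Ctsk, the collagen-degrading cathepsin K, as the 1 lower of 37 kept. It read 7.16 and 5.18 (-1.97) and was past 2-fold lower in the tumor comparison as well (7.13 and 6.11, -1.02). The damage-sensing lectin genes Clec4e (10.65 and 9.50) and Clec4d (12.16 and 11.04) were lower among 16 kept C-type lectin receptors (median of 19 measured 0.00), and with median-centred arrays these gave -0.96 and -0.93.

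Housekeeping lists were tight around the median of all genes. Cytosolic ribosomal proteins (44 measured, 42 kept) had a median of 0.09, respiratory chain and ATP synthase genes (67, all kept) 0.11 and proteasome subunits (31, all kept) 0.03, with 0 past 2-fold in each. Cholesterol synthesis genes (19 measured, median 0.00) and LXR targets (11, median 0.13) had 0 past 2-fold. In lipid handling Angptl4 was the 1 lower of 21 kept genes (25 measured, median 0.09), and it was lower in the tumor comparison too (9.53 and 7.69, -1.85). Over the 75 lists 1394 different genes were measured and 1008 kept, and 13 lists had no gene past 2-fold. They took in 180 of the 367 lower and 20 of the 93 higher genes.

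Some called genes outside the lists are named here, chosen after their values were seen. Lower ones included stromal surface proteins: Cd248 (endosialin) read 9.34 and 6.27 (-3.07), the cadherin gene Cdh11 8.38 and 6.11 (-2.27), and Pdpn (podoplanin) 9.15 and 7.07 (-2.08). Developmental transcription factors were among them, with Meis2 at 6.99 and 5.00 (-1.98), Ebf2 at 7.80 and 5.82 (-1.98), Hoxc9 at 6.86 and 5.19 (-1.67) and Hoxc4 at 7.17 and 5.54 (-1.63). Secreted or receptor genes of immune cells also differed. Ifnb1, the interferon beta gene, read 7.77 and 5.52 (-2.24), with 5.07 and 4.76 on the tumor arrays, and Gpr84, a fatty acid receptor of activated macrophages, 7.56 and 6.37 (-1.19). Thbd, the anticoagulant thrombomodulin, read 12.27 and 10.76 (-1.51), the cAMP-responsive regulator Crem 10.69 and 8.76 (-1.93), and the beta-globin gene Hbb-b2, an erythroid transcript, 11.39 and 9.79 (-1.60). Higher ones included Gpr34, a lysophosphatidylserine receptor of resident macrophages, at 8.85 and 10.28 (1.43), and Tslp, an epithelial cytokine, at 8.98 and 10.51 (1.53). The B-lineage genes Tnfrsf13b (7.78 and 8.79), Igll1 (4.78 and 6.10) and Igk (9.05 and 10.15) and the mitotic genes Cep55 (8.43 and 9.68), Spc25 (6.77 and 8.02) and Aspm (5.83 and 7.06) were higher as well. Of these Igk (0.39), Igll1 (0.75), Cep55 (0.94), Spc25 (0.60) and Aspm (0.70) were within 2-fold as the mean of their probe sets, Tnfrsf13b (0.998) after quantile normalization and Gpr84 (-0.9995) with median-centred arrays.

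The tumor arrays, which share no sample with this comparison, were compared over the 6849 genes kept in both settings. Of 272 lower genes kept in both, 8 were lower in tumor too (2.94%, against 0.657% of all 6849) and 13 were higher there (4.78%, against 1.05%). Those 8 and 13 were 17.8% of the 45 lower and 18.1% of the 72 higher tumor genes, against 3.97% lower in remodeling over all 6849. Of 80 higher genes kept in both, 2 were higher and 2 lower in tumor (2.5% each), which are 2.78% and 4.44% of the tumor genes, against 1.17% over all 6849. The 367 lower genes lay between the remodeling arrays on both tumor arrays in 219 cases, and the mean of the tumor arrays was nearer the Ets2-deficient remodeling array in 220. For the 93 higher genes these numbers were 44 and 68. Called genes were picked for a wide gap between the 2 remodeling arrays, so other arrays fall within it partly by that choice. The same share over all kept genes was not computed, so the counts only describe the called genes.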

How the data were processed

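The values were log2 expression values as the authors deposited them, 1 array per group. GCOS and RMA are named per the submitters' processing notes, with versions and the arrays normalized together not given in the sources used here. Per the labels' protocols, about 10 ng of RNA was amplified as cDNA before labelling. RMA values are compressed near background, so differences of dim genes are understated. Nothing was rescaled. Of 22690 probe sets, 64 were controls, 20380 named 1 gene, 691 several and 1555 none. The probe set brightest on average across all 4 arrays stood for its gene, which gave 12393 genes, and 20351 probe sets matched RefSeq names by Entrez identifier. Differences, the median limit and the 2-fold limit were computed with Python 3.11.15, pandas 2.3.3 and numpy 2.4.6. The code was run on simulated data with planted differences, larger than the limit, in bright genes. That does not check calls near the limit or of dim genes. The precision is limited by the number of arrays.

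Named genes are the 15 highest and 15 lowest, members of the gene lists (first those past 2-fold, then some that were not), Ets2, and up to 10 genes past 2-fold in opposite directions in the 2 settings. The comparison and the 75 lists were chosen with earlier results of these data known. Alternatives were other scalings, brightness filters, fold limits and probe set choices.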

Additional observations from a re-analysis of the deposited data

Results flagged for a closer look

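Of the 15 genes past 2-fold in opposite directions in the remodeling and tumor comparisons, the 10 with the widest gap follow. The difference between the settings was not tested, since each rests on 1 array per group. Vcan was lower by -2.59 in remodeling and higher by 1.44 in tumor macrophages. Acod1 gave -2.37 and 1.21, and the TGF-beta ligand gene Tgfb2 gave -1.85 and 1.62. The Hedgehog co-receptor gene Boc gave -2.13 and 1.15 (in remodeling -0.77 as the mean of its probe sets), Dmkn gave -2.24 and 1.02, and Nhsl1 gave -1.91 and 1.22. Thbs1 gave -1.76 and 1.07, and Igfbp7 gave -1.44 and 1.06. In the other direction BC147527 gave 1.56 and -1.17, and Amdhd1, an enzyme of histidine breakdown, gave 1.14 and -1.42.

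Probe sets that the annotation ties to several genes or to none were outside the comparison. Of 2246 such probe sets 966 were bright, and past 2-fold 13 of them were higher and 40 lower. The lowest of them read 8.91 with Ets2 and 4.10 without it, and no gene is named for it here.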

How the results depend on the processing

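All 237 called genes that are named or in a list kept their sign under the 3 scalings and 2 probe set choices, and 185 stayed past 2-fold under all 5. Both centrings shift all genes by the same amount, which is smaller than the 2-fold limit. The sign of a called gene could therefore not change under them. Of the 75 list medians 18 changed sign under at least 1 of these, 16 of them under each centring, and the largest of the 18 was 0.183 in size. The 93 higher genes became 192 with each array centred on its median, 194 centred on hybridization controls, 21 with a 75th percentile filter, 463 at 1.5-fold and 11 at 3-fold. The 367 lower genes became 130 with that filter, 690 at 1.5-fold and 220 at 3-fold. The 8 higher mitosis genes became 13 under both centrings, 3 with the filter, 23 at 1.5-fold and 1 at 3-fold. The 2 higher B cell genes became 4 under both centrings, 1 with the filter, 6 at 1.5-fold, 0 at 3-fold and 0 with the mean of all probe sets. With the filter the 18 lower fibroblast genes became 11 and the 5 lower mast cell genes 3. Fold and filter alternatives change the number of genes by construction. For the scalings and the probe set mean the cause was not tested.

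No paired analysis was possible because each group has 1 array. The smallest differences that can be read are limited by this, and genes near background have no exact size.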
